A study of Mus musculus with 18 samples.

Results

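Afp, H19, Igf2, Dlk1, Gpc3, Igf2bp2, Igf2bp3 and Zbtb20 are genes of the fetal liver or of liver tumours, with Zbtb20 included as the repressor that keeps Afp low after birth. The 8 genes were taken from the count table by symbol, out of 52636 gene IDs, and were followed through every group of the study. RNA was sequenced from 18 mouse livers in 6 groups of 3 replicates, all taken at ZT8, 8 hours after lights on. All mice had received tamoxifen (10 mg/mL in corn oil, by injection into the abdomen) on 5 days at an age of 8 weeks. The strain label of every group carries Hnf4atm1.1Gonz, a conditional allele of the gene for the nuclear receptor HNF4α, and Albtm1(cre/ERT2)Mtz, a tamoxifen-activated Cre recombinase placed at the albumin gene, so that recombination is driven in hepatocytes. The BH groups also carry Arntltm1Weit, a conditional allele of Arntl, which encodes the clock activator BMAL1. H-WT and H-KO (Hnf4a line) and BH-WT and BH-KO (Arntl and Hnf4a line) were 10 weeks old. BH-HF-WT and BH-HF-KO, of the Arntl and Hnf4a line, were 45 weeks old. Their high-fat diet began at 10 weeks and lasted 35 weeks. WT and KO mice of a pair share a strain label and tamoxifen, and the sources used here do not say how the WT mice differed.

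In the fetal liver, hepatoblasts make AFP, the main serum protein of the fetus, and carry DLK1 on their surface. Insulin-like growth factor 2 (IGF2) drives fetal growth, H19 is the RNA transcribed beside it from the other parental allele, and the IGF2BP proteins bind and stabilise fetal messages such as that of Igf2. After birth these genes are shut down in hepatocytes, Afp under repressors that include ZBTB20, ZHX2 and ZFHX3. Several of them, among them Afp and Gpc3 (glypican 3, a heparan sulfate proteoglycan), return in liver cancer and are used as its markers.

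The promoters shown are those of 3 members whose counts differed between groups, and of Igf2bp3, whose window held the letters CACGTG. Each is given as the 250 bases before the start of transcription, 5′ to 3′ on the gene's strand (RefSeq, GRCm38.p6, chr5:90490464-90490713 on the plus strand, chr12:109452573-109452822 on the plus strand, chrX:52613975-52614224 on the minus strand and chr6:49214955-49215204 on the minus strand). Capitals mark a motif found by letters, on either strand.
Afp: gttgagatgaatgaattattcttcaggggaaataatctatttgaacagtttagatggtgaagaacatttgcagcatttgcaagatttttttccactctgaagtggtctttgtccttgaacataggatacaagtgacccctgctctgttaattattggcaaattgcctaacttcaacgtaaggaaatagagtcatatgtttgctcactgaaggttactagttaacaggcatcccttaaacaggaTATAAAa
Dlk1: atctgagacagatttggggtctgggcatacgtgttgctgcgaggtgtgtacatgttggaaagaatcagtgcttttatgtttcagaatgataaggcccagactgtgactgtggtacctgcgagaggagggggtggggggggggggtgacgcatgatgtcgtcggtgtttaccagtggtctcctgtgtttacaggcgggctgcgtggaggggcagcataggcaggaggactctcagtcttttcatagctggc
Gpc3: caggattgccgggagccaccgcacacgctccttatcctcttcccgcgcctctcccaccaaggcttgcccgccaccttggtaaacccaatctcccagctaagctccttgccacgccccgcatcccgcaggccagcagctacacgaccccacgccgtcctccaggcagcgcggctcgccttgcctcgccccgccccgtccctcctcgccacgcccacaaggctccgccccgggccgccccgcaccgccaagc
Igf2bp3: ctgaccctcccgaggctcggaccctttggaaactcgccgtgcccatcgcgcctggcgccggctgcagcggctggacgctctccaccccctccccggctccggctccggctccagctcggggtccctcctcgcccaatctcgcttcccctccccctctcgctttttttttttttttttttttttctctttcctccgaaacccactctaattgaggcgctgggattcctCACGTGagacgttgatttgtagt
Windows of this length were found for 7 of the 8 members and for 32851 gene starts in all, and both strands were searched. The first motif was the E-box bound by BMAL1 and its clock partner, written CACGTG, which is present in 6.02% of all windows. Among the members it was found in Igf2bp3 alone, from 23 to 18 bases before the start. Afp held a TATA box, the element that places the start of transcription, searched for as TATAAA and present in 12.4% of windows, from 7 to 2 bases before the start. Distances are counted from RefSeq's starts. For Afp, Gpc3, Igf2bp3, Zbtb20 and most windows of Igf2 these differ from the GENCODE starts of the loci given below. The Zbtb20 window (chr16:43247034-43247283, plus strand) lies well inside its GENCODE locus, so the sequence before the GENCODE start of Zbtb20 was not searched. RefSeq's start of Afp lies upstream of the GENCODE one, so that the box is farther from the latter. A nuclear receptor half-site, searched for as AGGTCA, stood in 1 of 4 windows of Igf2 and in 14% of all windows. An HNF4 site, searched for as CAAAGTCCA and present in 0.384% of windows, was in no window of a member. None of these motifs overlaps another in the windows printed, and the windows of Dlk1, Gpc3, Igf2bp2 and Zbtb20 held none of them. A match is a description of the sequence and not a site shown to be bound.

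Total counts were 6846471 to 9816124 per library, and levels are given in CPM, the count relative to the library's total after scaling by its TMM factor (0.83 to 1.38). A count of 0 then allows up to 3 counts, or 0.264 to 0.479 CPM in a library, from counting error alone. Liver identity was plain in every library, the summed level of 10 hepatocyte markers lying between 30116 and 130419 CPM. Of the genes the alleles target, Arntl was read at 17.3, 22.3 and 24 CPM in BH-KO, against 0.420 to 0.798 in BH-WT, so that its count over the whole gene was higher and not lower there. It was read at 0.884 to 2.53 CPM in the libraries labelled BH-HF-KO, which overlapped the 1.02 to 2.0 CPM of BH-HF-WT. Hnf4a counts overlapped between WT and KO in each pair and passed the test in none, and a count over the whole gene checks the deletion of a part of it only weakly. The libraries labelled BH-HF-KO thus showed no change in either targeted gene. BH-KO replicate 1 stood apart from its group on the first principal component (48.3% of variance, -1.32 against 80.3 and 79.0). H-WT replicate 3 alone had the expression pattern of a female liver, with Xist at 1082 CPM (at most 3.89 in the other 17). Its Y-linked Ddx3y was at 5.73 CPM, against 115 to 185 in the other 17, which had the male pattern. H-WT thus held both patterns. BH-WT replicate 2 lay lowest on the second component (-71.9, 15.1% of variance). Where a call or direction rests on one of these livers, the value without it is given.

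Per kilobase of exon, averaged over the 18 livers, Zbtb20 was the highest member (13.2 CPM per kb), followed by Afp (2.57), Gpc3 (1.06), H19 (0.507) and Igf2bp2 (0.260). Igf2 (0.0974), Dlk1 (0.0680) and Igf2bp3 (0.0619) were lowest. From Afp downward the ranges over libraries of neighbours in this order overlapped, so that their order is not firm, and it changed between groups. In H-KO Gpc3 (1.30 CPM per kb) was above Afp (0.726) and Dlk1 (0.369) above H19 (0.123), and in BH-KO Gpc3 (1.25) was above Afp (1.17). Of the 8 members, 6 had enough counts for the test across all genes (edgeR's quasi-likelihood F-test with Benjamini-Hochberg adjustment over 13958 genes, threshold 0.05), while Igf2 and Igf2bp3 did not. Dlk1 entered the test only through the group in which it was high, and had to differ. In H-KO against H-WT, Dlk1 rose and Afp and Zbtb20 fell, beside 34.9% of all genes tested that passed (15.8% higher and 19.1% lower). Those were 2209 higher and 2662 lower genes (3338 and 2063 with upper-quartile scaling, which shifts the median of all genes by 0.15 on the log2 scale). In BH-KO against BH-WT no member passed (1 by DESeq2, and 1 at an unadjusted p under 0.05 by edgeR), beside 28.6% of all genes (14.3% in each direction; 2560 higher and 1720 lower with upper-quartile scaling). In the libraries labelled BH-HF-KO no member and no gene passed (0.00%, with 490 genes at an unadjusted p under 0.05 by edgeR and none passing by DESeq2). Between BH-WT and H-WT no member passed either, by edgeR or DESeq2, and none had an unadjusted p under 0.05, beside 0.165% of all genes (0.0573% higher and 0.107% lower). Each p-value sets a difference between groups against the spread between livers within groups, which was estimated over all 6 groups together. These shares are also the background for the counts of gene and marker lists.

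**Figure D1:**
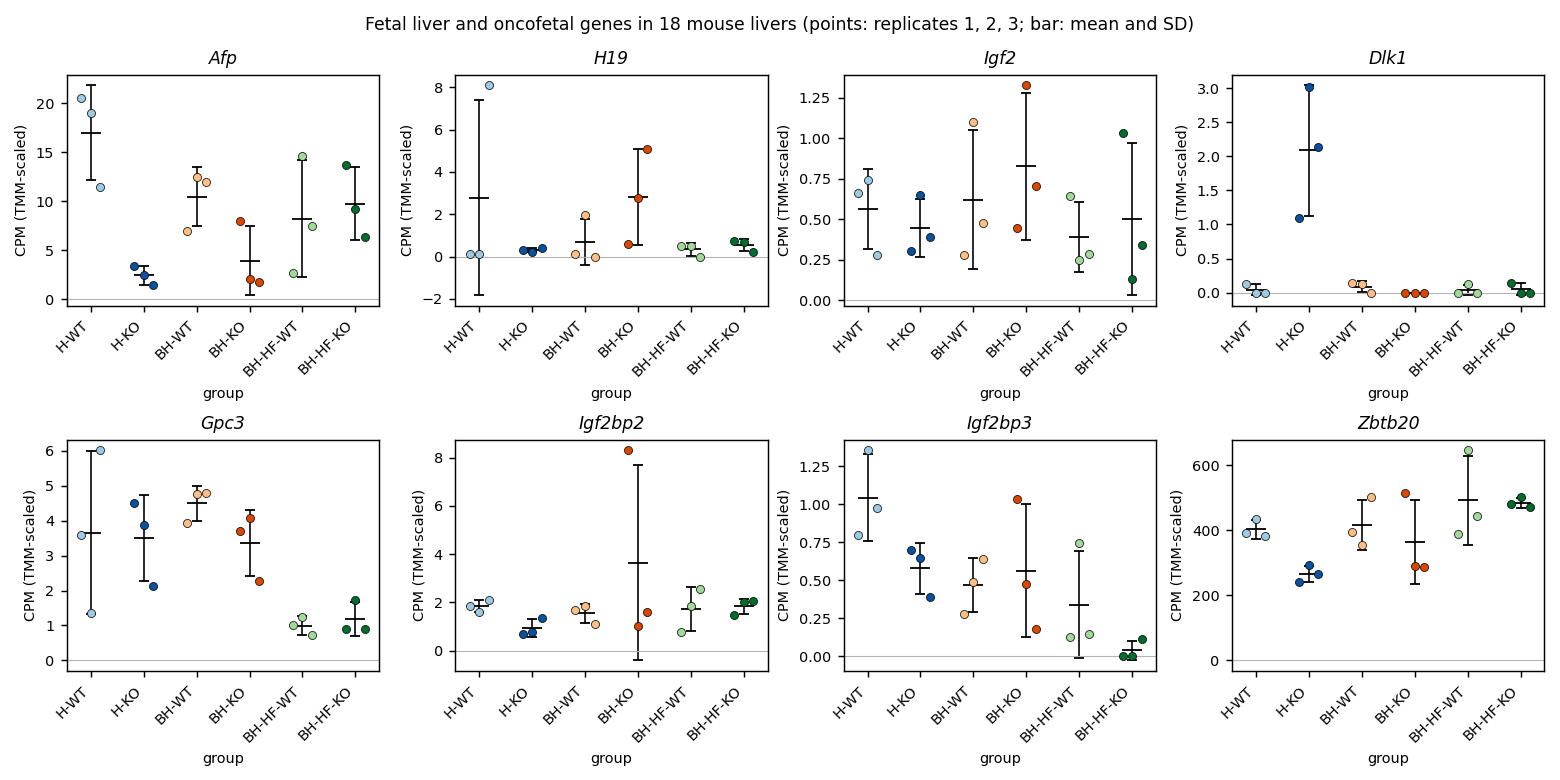
Level of each of the 8 genes in the 18 livers, as CPM scaled by TMM factors (linear axes that differ between genes), by group on the horizontal axis. Points are replicates 1, 2 and 3 from left to right, and the bar and whiskers are the mean and SD of 3. Dlk1 was above 1 CPM in H-KO alone, and Afp was low in H-KO, in BH-KO replicates 2 and 3 and in BH-HF-WT replicate 1. The group means of Gpc3 were lowest at 45 weeks, although H-WT replicate 2 (1.36 CPM) lay below BH-HF-KO replicate 2 (1.73 CPM).

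Afp fell in H-KO, and by edgeR passed neither in BH-KO nor in the libraries labelled BH-HF-KO. Its levels were 20.6, 19 and 11.5 CPM in H-WT (155, 154 and 82 counts) and 3.4, 2.48 and 1.46 CPM in H-KO (34, 23 and 15 counts). All 3 H-KO livers were below all 3 H-WT livers. The log2 fold change was -2.79 ± 0.62 (SE, n = 3 and 3, adjusted p = 0.0033), a 6.93-fold fall, and it passed under each of the 13 alternatives tried (adjusted p 2.68e-05 to 0.0188). In BH-WT Afp was at 7.0, 12.5 and 12 CPM, and in BH-KO at 8.01, 2.09 and 1.76. Replicate 1 of BH-KO, the liver that stood apart, lay within the BH-WT range and the other two lay below it. With all 3 livers the log2 fold change was -1.49 ± 0.61 (adjusted p = 0.081, not passed by edgeR, against 0.0484 by DESeq2), and without that liver it was -2.44 ± 0.61 (adjusted p = 0.0057). The BH and H effects on Afp were not shown to differ (interaction 1.31 ± 0.86, adjusted p = 0.381, and 0.35 without BH-KO replicate 1, adjusted p = 0.823).

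At 45 weeks BH-HF-WT livers had 2.69, 14.6 and 7.43 CPM of Afp. The libraries labelled BH-HF-KO had 13.7, 9.20 and 6.34 CPM, and the groups overlapped (log2 fold change 0.23 ± 0.58, adjusted p = 1). The difference between this effect and that in BH-KO was 1.72 ± 0.84 (adjusted p = 0.238), and 2.67 without BH-KO replicate 1 (adjusted p = 0.0227). The difference of BH-WT from H-WT in Afp did not pass (-0.70 ± 0.56, adjusted p = 0.759). The deposited table lists an antisense gene, Gm43449, inside the Afp locus (mm10, chr5:90490737-90508907, plus strand), with 0 to 16 counts per library. How the counting treated strand is not given, so some of those reads cannot be told from Afp.

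Afp belongs to the albumin gene family, whose other members encode adult serum proteins. In H-KO, 3 of its 4 genes fell and none rose, the median log2 fold change being -2.42 beside -0.00 over all genes. Alb fell by 2.75 on the log2 scale (adjusted p = 0.000102), at the locus that carries the Cre, and Afm (afamin, a vitamin E carrier) fell by 2.10 (adjusted p = 1.04e-05). Gc, the vitamin D-binding protein, was at 6311 ± 51.1 CPM in H-WT and 7259 ± 322 CPM in H-KO (SD, n = 3) and did not pass. In BH-KO only Alb fell (-1.77 ± 0.37, adjusted p = 0.0027, and 0.0887 with the compared groups alone), and without replicate 1 of BH-KO 3 of the 4 fell. Afm differed between the lines, the H effect being the larger fall (interaction 1.84 ± 0.28, adjusted p = 0.0024). In the libraries labelled BH-HF-KO, Alb was 34939 ± 5854 CPM against 78950 ± 10287 CPM in BH-HF-WT (SD, n = 3), without overlap, but did not pass (-1.18 ± 0.36, adjusted p = 1). Mean Afp there was 9.75 CPM, against 8.24 CPM in BH-HF-WT. The summed hepatocyte markers, Alb among them, were lower in H-KO, at 30116 to 37270 CPM against 98769 to 106941 in H-WT. Of the 10 markers 5 fell in H-KO (2 to 3 when a library was left out). Their sum was 80042 CPM in BH-KO replicate 1 and 45067 and 37331 in the other two, against 99371 to 129632 in BH-WT. In that comparison, however, Alb was the only marker of the 10 that fell, Apoa1 rose and 8 did not pass, beside 28.6% of all genes that passed. The median log2 fold change of the 10 markers was 0.03 in BH-KO, beside 0.03 over all genes, and -0.44 in H-KO, beside -0.00. Their part in the result for Afp was not tested, and in whole liver fewer cells of a type and less RNA per cell cannot be told apart.

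Zbtb20, the postnatal repressor of Afp (mm10, chr16:42875881-43642602, plus strand), fell with Afp and not against it. It was at 381.6 to 435.9 CPM in H-WT and 240.4 to 291.8 CPM in H-KO, without overlap, and the log2 fold change was -0.60 ± 0.22 (adjusted p = 0.0490). That call was marginal. It was kept in 4 of 13 alternatives, with the adjusted p between 0.0067 and 0.147, and was lost when any 1 of the 6 livers was left out. In BH-KO, replicate 1 was at 514 CPM and replicates 2 and 3 at 291 and 288, against 354 to 503 CPM in BH-WT (-0.20 ± 0.22, adjusted p = 0.537). Without replicate 1 the log2 fold change was -0.53 ± 0.19 (adjusted p = 0.0342). At 45 weeks Zbtb20 was at 387 to 646 CPM in BH-HF-WT livers and at 472 to 502 CPM in the libraries labelled BH-HF-KO. Across the 18 livers the log2 levels of Afp and Zbtb20 had a Pearson correlation of 0.73 (Spearman 0.62), a description in which the livers share groups and scaling factors.

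**Figure D2:**
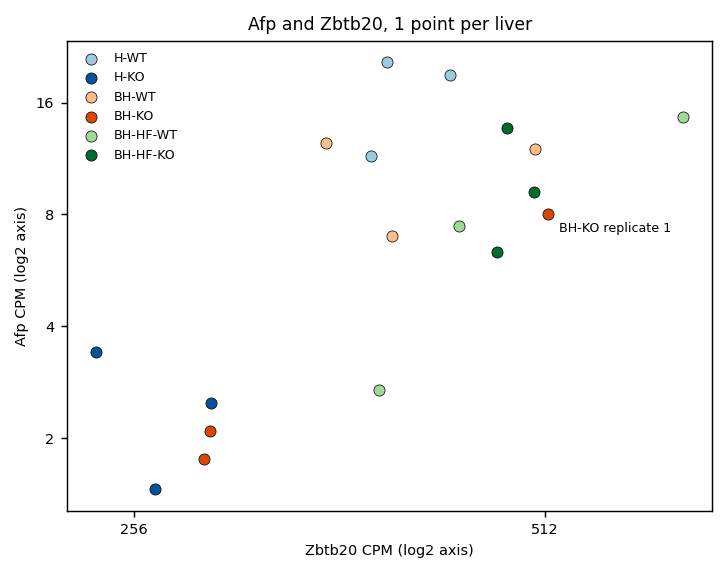
Afp level (vertical, CPM) against Zbtb20 level (horizontal, CPM), both on log2 axes, with 1 point per liver coloured by group. The 3 H-KO livers and BH-KO replicates 2 and 3 lie together at the lower left, with Afp at 1.46 to 3.4 CPM, BH-HF-WT replicate 1 has a like Afp level (2.69 CPM), and BH-KO replicate 1 lies among the WT livers.

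Of the other Afp repressors, Zhx2, whose low-activity allele is known to leave Afp raised in adult mice, also fell. It went from 15.7, 23.8 and 23.8 CPM in H-WT to 13.4, 16.5 and 14.8 in H-KO (-0.50 ± 0.17, adjusted p = 0.0321, with overlap). That call was kept in only 5 of 13 alternatives. It was lost with upper-quartile scaling (adjusted p = 0.109), with no filter (0.0541), with the compared groups alone (0.0583), without H-WT replicate 2 or 3 or H-KO replicate 1 or 3 (0.0781 to 0.120), and without BH-KO 1 and H-WT 3 together (0.0798). In BH-KO it was at 13.3 to 18.4 CPM against 22.1 to 24.1 in BH-WT, without overlap (-0.58 ± 0.17, adjusted p = 0.0196), a call that BH-WT replicate 3 and BH-KO replicates 2 and 3 each carried (adjusted p 0.0576 to 0.0890 when 1 of these was left out) and that was lost with the compared groups alone (0.0766). Zfhx3 did not pass in H-KO (0.10 ± 0.14, adjusted p = 0.614) or in BH-KO (0.36 ± 0.14, adjusted p = 0.0734). The wider list of 23 regulators of Afp and of liver identity had 22 tested genes. In H-KO 2 rose and 10 fell, 12 of 22 beside 34.9% of all genes, with a median log2 fold change of -0.45 beside -0.00. In BH-KO 2 rose and 7 fell, 9 of 22 beside 28.6% (median -0.15 beside 0.03), or 4 and 9 without BH-KO replicate 1. The falls were 2 without BH-KO replicate 2 or 3, and the rises 1 without BH-WT replicate 2. Cebpa, a driver of the mature hepatocyte state, fell from 389 ± 32.9 to 132 ± 6.94 CPM in H-KO (-1.56 ± 0.13, adjusted p = 2.98e-06) and from 400.0 ± 71.7 to 86.9 ± 1.26 CPM in BH-KO (-2.20 ± 0.13, adjusted p = 7.26e-08). Its fall was larger in BH-KO (interaction -0.65 ± 0.18, adjusted p = 0.0421), a difference kept in only 7 of 19 alternatives and lost in 9 of those that left out 1 liver. Trp53, a repressor of Afp in development, rose in H-KO (0.47 ± 0.13, adjusted p = 0.0120, and 0.051 without H-KO replicate 2), and Foxa1, a pioneer factor of the liver, rose in BH-KO (0.96 ± 0.27, adjusted p = 0.0155, but 0.0697 without BH-WT replicate 2 and 0.0711 with the compared groups alone). In the libraries labelled BH-HF-KO none of the 22 passed by edgeR, with 1 at an unadjusted p under 0.05, and none by DESeq2.

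**Figure D3:**
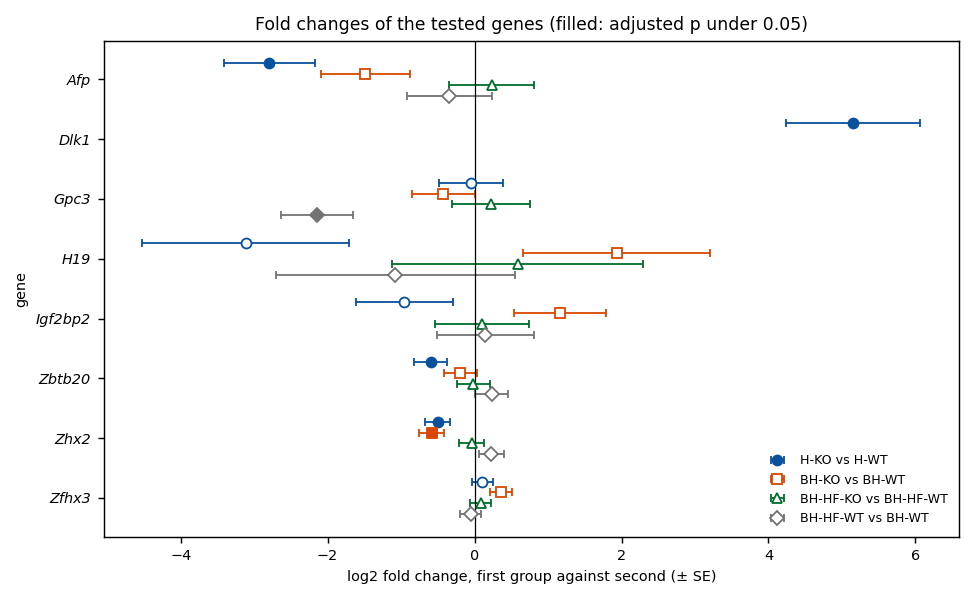
Log2 fold change (horizontal, ± SE) of the 6 tested members and of Zhx2 and Zfhx3 (vertical) in 3 comparisons of KO with WT and in BH-HF-WT against BH-WT. Filled symbols passed at an adjusted p under 0.05. Dlk1 is drawn for H-KO alone, because its counts were at or under 3 per group elsewhere. Afp lies at -2.79 and Dlk1 at 5.15 in H-KO, and Gpc3 at -2.15 with age and diet.

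Dlk1, the surface protein of hepatoblasts (mm10, chr12:109452823-109463336, plus strand), was read in quantity in H-KO alone. It had 11, 28 and 22 counts in the 3 H-KO livers (1.10, 3.02 and 2.14 CPM) and 1, 0 and 0 counts in H-WT. In the other 12 livers no library had more than 1 count. The pooled ratio of H-KO to H-WT was 47.1 with a 95% counting interval of 8.13 to 1889, since H-WT held a single count. The fitted log2 fold change of 5.15 depends on the prior count of the fit. Since Dlk1 entered the test only through H-KO, its call there is a description of these counts and no support of its own. BH-KO held 0 counts in all 3 livers, which allows up to 0.105 CPM over the group, and BH-WT held 2, so no fold is given for BH-KO. The same limit holds for the difference between the BH and H effects (adjusted p = 0.0484, beside 6.06% of all genes that passed, 3.76% higher and 2.30% lower), which was kept in only 5 of 19 alternatives (adjusted p 0.0159 to 0.165). The level in H-KO was low, 0.369 ± 0.170 CPM per kb of exon (SD, n = 3) against 0.726 ± 0.289 for Afp in the same livers.

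DLK1 is a relative of the Notch ligands. Of 15 Notch pathway genes, 11 were tested. In H-KO 2 rose and 2 fell, Dlk1 itself among the rises, 4 of 11 beside 34.9% of all genes, a share near the background. The median was -0.20 beside -0.00 over all genes, and 1 rose without H-WT replicate 1 or 3 or H-KO replicate 2 or 3. Hes1, a Notch target, rose by 1.42 ± 0.52 (adjusted p = 0.0487, kept in 5 of 13 alternatives) and Hes6, an antagonist of HES1, fell by 1.51 ± 0.20 (adjusted p = 7.53e-05). In BH-KO none rose and 3 fell, 3 of 11 beside 28.6% (median -0.47 beside 0.03), with Hes6 falling by 2.07 and the receptor Notch2 by 0.47 (adjusted p = 8.81e-06 and 0.0029). Without replicate 1 of BH-KO 1 rose and 4 fell. The genes whose log2 level most resembled that of Dlk1 over the 18 livers were Hadha, of mitochondrial fatty acid oxidation, Rai1 and Rab44 (Pearson 0.93 each, Spearman 0.72, 0.56 and 0.50). Each was highest in H-KO, where Rab44 was at 8.17 CPM on average and at most 0.291 in any other group. Outside H-KO no library had more than 1 count of Dlk1, so such a ranking picks genes high in H-KO. The likeness is therefore a description of that group and no support of its own.

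Dlk1 lies in an imprinted domain in which it is expressed from the paternal copy and the long RNAs Meg3, Rian and Mirg from the maternal copy. These RNAs went the other way from Dlk1 in H-KO, and went down in BH-KO too, where Dlk1 was not detected. Meg3 was at 71.7, 45.1 and 76.8 CPM in H-WT and 2.80, 3.34 and 9.33 in H-KO, without overlap (-3.63 ± 0.83, adjusted p = 0.0042). It was at 104, 39.5 and 79.5 CPM in BH-WT and 6.37, 1.99 and 1.58 in BH-KO (-4.59 ± 0.89, adjusted p = 0.0025). BH-KO replicate 1, which stood apart in Afp and Zbtb20, was the highest of its group in Meg3 but below every BH-WT liver (-5.37 without it, adjusted p = 0.0021). Rian fell by 3.82 in H-KO (adjusted p = 0.0028) and by 4.64 in BH-KO (adjusted p = 0.0020). Mirg, named after its values were seen, fell by 3.96 and 5.04 (adjusted p = 0.000235 and 0.000217). The 3 RNAs are neighbours on chromosome 12, so they are not independent of one another.

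Both groups at 45 weeks were low in these RNAs. In BH-HF-WT Meg3 was at 17.5, 0.624 and 4.29 CPM, below all BH-WT livers (-3.30 ± 0.82, adjusted p = 0.0300), but this call was kept in only 5 of 12 alternatives. It was lost without any 1 of the BH-WT livers (adjusted p 0.0563 to 0.0590), without BH-HF-WT replicate 2 or 3 (0.0893 and 0.106), with no filter on low counts (0.0790) and with the compared groups alone (0.121). Rian and Mirg fell by 3.34 and 2.50 with age and diet (adjusted p = 0.0265 and 0.0193), calls kept in 6 and 8 of 12 alternatives. Both were lost with the compared groups alone and without BH-HF-WT replicate 2 or 3 or BH-WT replicate 1, and Rian also with no filter and without BH-WT replicate 3. In the libraries labelled BH-HF-KO Meg3 was at 30.4, 8.13 and 19.5 CPM, overlapping BH-HF-WT (1.36 ± 0.81, adjusted p = 1). The effect differed from that in BH-KO (interaction 5.95 ± 1.19, adjusted p = 0.0123), beside 6.10% of all genes (3.45% higher and 2.65% lower), while no member passed in that difference, by edgeR or DESeq2, or had an unadjusted p under 0.05.

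**Figure D4:**
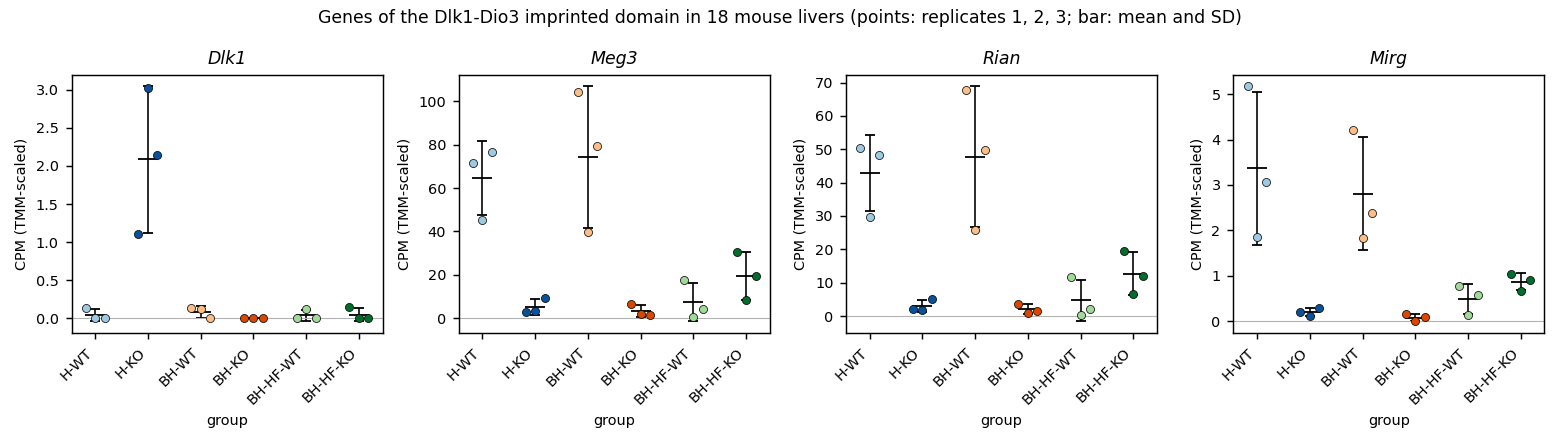
Levels (CPM scaled by TMM factors, linear axes that differ between genes) of Dlk1 and of the maternally expressed RNAs Meg3, Rian and Mirg in the 18 livers, by group. Points are replicates 1, 2 and 3 from left to right, with mean and SD. Meg3, Rian and Mirg were low in both H-KO and BH-KO, whereas Dlk1 was read in H-KO alone.

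H19 and Igf2 share another imprinted domain, on chromosome 7 (mm10, chr7:142575529-142578143 and chr7:142650766-142666816, both minus strand). H19 varied by liver more than by group. Its counts were 1, 1 and 58 in H-WT and 3, 2 and 4 in H-KO. They were 1, 16 and 0 in BH-WT and 4, 29 and 58 in BH-KO, and 0 to 5 in each of the 6 livers at 45 weeks. The 58 counts in H-WT came from replicate 3, the liver with Xist. No comparison of H19 passed (H-KO -3.11 ± 1.41, adjusted p = 0.101, and 1.16 without H-WT replicate 3). It passed in H-KO without H-WT replicate 1 or 2 (adjusted p = 0.0498 and 0.0497), and then rested on that liver. In BH-KO it was 1.93 ± 1.27 (adjusted p = 0.267), and 5.03 ± 2.02 without BH-WT replicate 2 (adjusted p = 0.0941). Without the 2 livers BH-KO 1 and H-WT 3, which were left out as a pair after the data were seen, it was 2.36 ± 0.78 (adjusted p = 0.0242). Igf2 had 1 to 14 counts per library in all groups, its group means lay between 0.392 and 0.825 CPM, and the groups of each pair overlapped. In a fit with no filter on low counts Igf2 passed in no comparison, with adjusted p from 0.767 to 1. The microRNA genes inside these loci, Mir675 and Mir483, had no counts.

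The list of 32 imprinted genes, many of which are expressed together in fetal growth, had 21 tested members. In H-KO 4 rose and 4 fell, 8 of 21 beside 34.9% of all genes (median 0.17 beside -0.00), and the rises were 2 without H-WT replicate 2 or H-KO replicate 1 or 2. In BH-KO 4 rose and 5 fell, 9 of 21 beside 28.6% (median -0.02 beside 0.03). Dlk1, which entered the test only through H-KO, was among the rises in H-KO. The neighbours Meg3, Rian and Mirg were among the falls in H-KO and in BH-KO, so the genes counted are not independent. Peg3, a zinc finger gene of the paternal copy, rose from 24.4 ± 2.03 to 207.6 ± 95.5 CPM in H-KO (3.09 ± 0.70, adjusted p = 0.0041) and from 9.56 ± 1.51 to 85.1 ± 66.5 CPM in BH-KO, there with overlap (3.16 ± 0.73, adjusted p = 0.0070). Ppp1r9a, neurabin I, rose by 1.56 in H-KO (adjusted p = 0.0267, kept in 6 of 13 alternatives), and Airn, the antisense RNA at Igf2r, rose by 2.65 in BH-KO (adjusted p = 0.0043, with overlap). The BH-KO calls for Peg3 and Airn were lost with the compared groups alone (0.0877 and 0.0786). In BH-HF-WT against BH-WT none rose and 7 fell, beside 7.0% of all genes, and 0 to 4 fell when a library was left out (0 without BH-HF-WT replicate 3). With all libraries, Meg3, Rian and Mirg were again among the falls.

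Among the ligands, receptors and binding proteins of the IGF system, Igf2 was too low for the test. Of 12 tested genes 3 fell and none rose in H-KO, beside 34.9% of all genes that passed (median -0.28 beside -0.00). Igf1, the growth factor made by adult liver, fell from 922 ± 251 to 131 ± 21 CPM (-2.81 ± 0.58, adjusted p = 0.0018), and Igfbp4 fell from 1603 ± 275 to 200.5 ± 73.2 CPM (-3.00 ± 0.35, adjusted p = 2.86e-05). The third was Insr, the insulin receptor (-0.94, adjusted p = 0.000572), named after its values were seen. In BH-KO 3 rose and 4 fell, 7 of 12 beside 28.6% (median -0.75 beside 0.03), or 3 and 8 without replicate 1. Igfbp2, a binding protein of fetal serum, rose from 304 ± 161 to 1409 ± 952 CPM with overlap (2.22 ± 0.58, adjusted p = 0.0123). Igfbp1, which binds IGFs in fasting, rose from 20.4 ± 10.5 to 66.5 ± 8.85 CPM (1.69 ± 0.51, adjusted p = 0.0254). Igfbp5 and Igfbp4 fell by 1.73 and 1.12 (adjusted p = 0.0145 and 0.0197). These 4 calls were kept in 8 of 13 alternatives for Igfbp1 and Igfbp4 and in 10 of 13 for Igfbp2 and Igfbp5, and all were lost with the compared groups alone. Igfbp1 was lost without BH-WT replicate 1 or 3 or BH-KO replicate 3, Igfbp2 without replicate 2 of either group, Igfbp5 without BH-KO replicate 2 or 3, and Igfbp4 without any 1 of BH-KO replicates 2 and 3 and BH-WT replicate 1. Leaving out BH-KO replicate 3 brought the rises to 1 and the falls to 2, and leaving out BH-KO replicate 2 also brought the falls to 2.

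Igf2bp2, the family member that persists in adult tissues (mm10, chr16:22059009-22163299, minus strand), was raised in a single liver. BH-KO replicate 1 had 56 counts (8.30 CPM) and the other two BH-KO livers 11 and 18 (1.04 and 1.58 CPM), against 1.12 to 1.83 CPM in BH-WT. Its log2 fold change in BH-KO was 1.16 ± 0.62 (adjusted p = 0.172), and -0.24 (adjusted p = 0.70) without that liver. In H-KO it was at 0.701, 0.755 and 1.36 CPM, below the 1.60 to 2.10 CPM of H-WT without overlap, and did not pass (-0.96 ± 0.66, adjusted p = 0.283). Igf2bp3, the fetal and tumour member (mm10, chr6:49085223-49214957, minus strand), had 6, 11 and 7 counts in H-WT and 7, 6 and 4 in H-KO. It had 2 to 7 counts in each BH-WT and BH-KO liver. It had 1, 6 and 1 counts in BH-HF-WT and 0, 0 and 1 in the libraries labelled BH-HF-KO, which makes the pooled ratio 0.123 (95% counting interval from 0.00278 to 0.920). It was too low for the test, and in the fit with no filter its adjusted p there was 1. Igf2bp3 overlaps Malsu1 on the opposite strand, which had 69 to 141 counts per library. Of the 12 genes of the IGF2BP and LIN28 axis 6 were tested, and none passed in H-KO or BH-KO by edgeR or DESeq2, with 0 and 0 at an unadjusted p under 0.05. Lin28b, which blocks the let-7 microRNAs in fetal cells, had 0 counts in all 18 livers. Mycn, a let-7 target, was higher with age and diet, at 0 to 1 counts in BH-WT livers and 14 to 52 in BH-HF-WT (adjusted p = 0.0017 by edgeR). Its counts in BH-WT were too low to bring it into the test. That call is therefore a description of these counts and no support of its own.

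Gpc3 (mm10, chrX:52272426-52613950, minus strand) passed the test with age and diet and with no KO label. It was at 3.92, 4.77 and 4.79 CPM in BH-WT (28, 39 and 30 counts) and at 1.02, 1.25 and 0.715 CPM in BH-HF-WT (8, 10 and 5 counts), without overlap. The log2 fold change was -2.15 ± 0.49 (adjusted p = 0.0183), beside 7.0% of all genes (2.79% higher and 4.21% lower). It was lost without BH-HF-WT replicate 2 or 3 or BH-WT replicate 2 (adjusted p = 0.0559, 0.0726 and 0.0652). Age, diet and any cohort difference between these groups cannot be told apart. The libraries labelled BH-HF-KO were as low, at 0.884, 1.73 and 0.906 CPM. In H-KO it was at 2.14 to 4.50 CPM against 1.36 to 6.01 in H-WT (-0.05 ± 0.43, adjusted p = 0.946, and 0.51 without H-WT replicate 3, adjusted p = 0.422), and in BH-KO at 2.29 to 4.08 CPM (-0.43 ± 0.43, adjusted p = 0.480). No other tested glypican passed with age and diet, and of the 4 tested glypicans none passed in H-KO or BH-KO by edgeR. At an unadjusted p under 0.05 there were 0 in H-KO and 1 in BH-KO, and DESeq2 called 0 and 1.

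Mesothelial markers, of the cells that cover the liver surface, moved with Gpc3. Of 5 tested markers 4 fell in BH-HF-WT against BH-WT, and 1 to 4 did when a library was left out. Their summed level was 20.9 to 41.0 CPM in BH-WT livers and 3.86 to 5.49 CPM in BH-HF-WT livers, and 3.28 to 5.45 in the libraries labelled BH-HF-KO. H-WT livers had 11.1 to 44.6 CPM, H-KO livers 22.6 to 48.2 and BH-KO livers 13.5 to 37.2. Of 12 tested stellate and fibroblast markers 2 fell, Col1a2 and Lum (-2.38 and -0.82, adjusted p = 0.0338 and 0.0229), and 10 did not pass. The median log2 fold change of these markers was -0.53 beside -0.02 over all genes. The part of these cells in the result for Gpc3 was not tested. The genes most like Gpc3 over the 18 livers were Sult3a1, a sulfotransferase, Slc22a26, a transporter, and Sulf1, which trims the sulfates of heparan sulfate chains (Pearson 0.93, 0.90 and 0.89).

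The last list held 30 targets of ZHX2 and other genes of fetal or tumour liver, of which 25 were tested. In H-KO 6 rose and 2 fell, 8 of 25 beside 34.9% of all genes (median 0.51 beside -0.00). Ly6d, a surface antigen, rose from 1.52 ± 1.06 to 116.6 ± 75.8 CPM (6.24 ± 1.12, adjusted p = 0.000934) and Akr1b7, an aldo-keto reductase, from 0.491 ± 0.306 to 9.71 ± 1.94 CPM (4.28 ± 1.08, adjusted p = 0.0070). The counts of Akr1b7 in H-WT were too low to bring it into the test. Its call in H-KO is therefore a description of these counts and no support of its own. Elovl3, a fatty acid elongase, fell with Afp (-5.49 ± 1.92, adjusted p = 0.0401), a call kept in 7 of 13 alternatives and lost without any 1 of the H-KO livers or H-WT replicate 1 or 2. In BH-KO 7 rose and none fell, 7 of 25 beside 28.6% (median -0.33 beside 0.03), where the median and the count of calls differ in direction. Without BH-KO replicate 1 7 rose and 6 fell, so the absence of falls rested on that liver, and 4 rose without BH-WT replicate 1 or 3. Akr1b7 rose by 3.85 (adjusted p = 0.0105, with overlap, and 0.137 with the compared groups alone). Elovl3 rose by 4.66 (adjusted p = 0.0301) with overlap (12 to 1152 counts per liver against 0 to 27 in BH-WT), a rise that rested on BH-KO replicate 1 (0.75 without it, adjusted p = 0.603) and was kept in 5 of 13 alternatives. Its effects in the lines differed (interaction 10.2 ± 2.39, adjusted p = 0.0264, kept in 12 of 19 alternatives). Sox9, of bile duct and progenitor cells, rose from 3.15 ± 0.819 to 38.1 ± 4.25 CPM in H-KO (3.60 ± 0.47, adjusted p = 9.21e-05) and from 3.62 ± 0.702 to 50.3 ± 20.7 CPM in BH-KO (3.81 ± 0.46, adjusted p = 7.92e-05). The marker list of bile duct and progenitor cells holds Sox9 itself. With Sox9 counted, 4 of its 9 tested genes rose and 1 fell in H-KO (2 rose without H-WT replicate 1 or 2 or H-KO replicate 1 or 3) and 5 rose in BH-KO, with summed levels of 182 to 249 CPM in H-KO and 75.4 to 122 in H-WT. Markers of dividing cells were at 48.9 to 61.0 CPM in H-KO and 28.0 to 41.4 in H-WT, where 1 of 14 rose and 1 fell, and 6 rose in BH-KO (12 without replicate 1 and 1 without replicate 2). No macrophage marker passed in H-KO by edgeR, none at an unadjusted p under 0.05, and 8 of 10 fell in BH-KO (1 without replicate 2). The part of any of these cells in the results for the 8 genes was not tested.

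Genes whose log2 level over the 18 livers was most like that of the remaining members were Tmtc2, Thrb (a thyroid hormone receptor) and Gpd1 for Afp (Pearson 0.90, 0.89 and 0.89), and Tlcd2, Fpgs and Tnfaip8l1 for Zbtb20 (0.93, 0.92 and 0.92). For H19 they were Ier3ip1, Wdfy1 and Eif2s3x (0.81, 0.80 and 0.77), and for Igf2bp2 Tcp1, Usp15 and Serinc1 (0.83, 0.81 and 0.80), where a single liver carried the highest value.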

How the data were processed

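Per the labels, liver RNA of 18 mice (total RNA by Trizol, Illumina libraries) was sequenced. The authors deposited raw whole-number counts per gene. The submitters' processing notes name STAR 2.6 and the build mm10. The sources used here do not give the counter, its annotation, or its strand and multi-mapping settings. Of 52636 IDs, 52403 were in GENCODE M21 (mm10), which gave coordinates, overlaps and exon lengths. Promoters came from RefSeq.

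Counts were fitted with edgeR 4.0.16 (R 4.3.3): TMM factors, filterByExpr with groups (minimum count 10), 1 mean per group over all 18 libraries (12 residual degrees of freedom), robust quasi-likelihood F-tests, two-sided, and Benjamini-Hochberg adjustment over 13958 genes in each of 7 comparisons. SE is the fold change over the root of F. Ratios of pooled counts have exact conditional intervals (95%), for counting error only. The test was checked on simulated counts.

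The members and lists were chosen with earlier results of these data known. Named are the 8 members, the targeted genes, the Afp repressors and, per list, up to 2 rises and 2 falls with the largest change and at least 5 CPM in a group, plus the 3 genes most like each member. Alternatives were DESeq2 1.42.0, its size factors, upper-quartile factors, no filter, the compared groups alone, the replicate block and leaving out each library. The pair left out was added after seeing the data. Same-numbered samples did not deviate together (correlations -0.25 to 0.06). Some genes of the lists are counted but not reported by name here.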

Additional observations from a re-analysis of the deposited data

Results flagged for a closer look

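Several effects differed between settings by a test of the difference itself (edgeR interaction contrasts, log2 scale, adjusted p under 0.05). Between the BH line and the H line the KO effect differed by -7.98 for Dlk1, whose size depends on the prior count because both BH groups were at or under 3 counts. Dlk1 entered the test only through H-KO, where it was high, so this value is no support of its own, and it passed in 5 of 19 alternatives. It differed by 4.43 for Arntl, 1.84 for Afm, 1.88 for Igfbp4 and -0.65 for Cebpa. It differed by -6.57 for Ly6d, 10.2 for Elovl3 and 3.06 for Lpl, the lipoprotein lipase repressed by ZHX2 after birth. Adjusted p ranged from 0.000938 for Arntl to 0.0484 for Dlk1. The differences for Cebpa, Igfbp4 and Elovl3 passed in 7, 12 and 12 of 19 alternatives.

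Between BH-HF and BH, the effect differed by -4.87 for Arntl, and by 5.95, 6.06 and 5.86 for Meg3, Rian and Mirg. In the IGF and Notch lists it differed by -3.56 for Igfbp1, 0.92 for Igfals and 2.12 for Hes6. Among regulators it differed by 2.22 for Cebpa and 1.27 for Nr2f2, and among fetal or tumour genes by -3.93 for Lpl and -3.54 for Sox9. Adjusted p ranged from 6.02e-06 for Cebpa to 0.0216 for Igfals, which passed in 13 of 19 alternatives. These interactions rest on the libraries labelled BH-HF-KO, in which neither targeted gene differed from BH-HF-WT.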

How the results depend on the processing

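In H-KO the number of members past the threshold was 3 and stayed between 2 and 3 under every alternative, with Afp called in each, and with Dlk1, which entered the test only through H-KO. In BH-KO it was 0, against 1 with DESeq2, 3 without BH-KO 1 and H-WT 3 together (a pair chosen after seeing the data), and 0 to 2 when 1 library was left out. For the difference between the BH and H effects it was 1, against 0 with no filter, 0 with the compared groups alone, 0 with the replicate block, 0 without that pair, and 0 to 1 without 1 library. For the difference between BH-HF and BH it was 0, against 1 without the pair and 0 to 1 without 1 library. For BH-HF-WT against BH-WT it was 1 and 0 to 1 without 1 library. The replicate block ended the call for Zbtb20 in H-KO (2 members) and changed no other call of a member in a comparison of 2 groups. In the pairing check not every sample resembled its own number best. The cause of these changes was not tested.

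Over all genes, calls in BH-KO were 3990 and 1027 with the compared groups alone, 6099 without the pair (2338 to 5841 without 1 library). They were 846 for BH minus H against 1394 with DESeq2, 516 with no filter and 476 alone (356 to 1231), and 851 for BH-HF minus BH against 1315 with DESeq2, 417 alone and 3326 without the pair (360 to 3071). For BH-HF-WT against BH-WT they were 977 and 1495 with DESeq2 (226 to 1035), and for BH-WT against H-WT 23 and 101 with DESeq2, 35 with no filter, 77 without the pair and 14 with the block (7 to 18). Upper-quartile scaling changed the higher and lower calls from 525 and 321 to 427 and 395 (BH minus H) and from 481 and 370 to 430 and 549 (BH-HF minus BH). Of 4242 values of single genes, 3804 kept direction and side of the threshold, 188 lost the threshold, 82 gained it, and 168 that passed in neither fit changed sign. No called value changed sign. Depth limits Igf2, Igf2bp3 and Dlk1 outside H-KO, at 0 to 14 counts per library.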

Other observations

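Other fetal genes stayed near the limit of detection, and the genes named here were chosen after their values were seen. Sall4, a transcription factor of fetal liver and of a class of liver tumours, had 5 to 8 counts in each H-KO liver and 0 to 2 in each of the other 15, too few for the test. It is thus, like Dlk1, a gene read mostly in H-KO. Rtl1, another paternally expressed gene of the Dlk1 domain, had 3 to 8 counts in H-WT and 5 to 9 in BH-WT livers and 0 to 1 in H-KO, so that its counts did not follow those of Dlk1. It had 0 counts in BH-KO and BH-HF-WT. How the counting treated strand is not given, so any reads from the opposite strand cannot be told from Rtl1. Dio3, at the far end of that domain, had 0 to 1 counts in every liver, and Igf2bp1, the fetal relative of Igf2bp2, had 0 to 3.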
